A study of Oryza sativa Japonica Group with 6 samples.

Results

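Rice coleoptiles of the wild type and of the rad mutant, both of cultivar Kinmaze and both grown from seeds germinated under submergence, were compared for the transcripts of aquaporins, proton pumps and ion transporters. Members were the non-control probes of the array whose description named one of these proteins (aquaporin or intrinsic protein, H+-ATPase, pyrophosphatase, calcium ATPase, potassium channel or transporter, antiporter, chloride channel, or a nitrate, ammonium, phosphate or sulfate transporter), without descriptions that named a proteasome or an ABC protein. The search itself used descriptions and no measured value, but the members were chosen with earlier results of these data known. It gave 140 of 21495 probes. They carried 87 different descriptions, and 45 of the 140 probes were described by a rice sequence. The others were described by a sequence of another species, so they are called "like" here.

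The coleoptile is the closed sheath around the young shoot of a grass seedling, and in rice it is the organ that elongates when a seed germinates under water. RNA came from coleoptiles that were cut by laser microdissection from frozen sections of 8 µm, was amplified, and was hybridised on 6 arrays with 2 colours, the rad mutant in one dye and the wild type in the other. The arrays formed 3 numbered replicates, each measured in both dye orientations. The labels give no age and no word on separate cultures for the replicates. The p-values therefore refer to the spread among these samples alone, part or all of which may be technical. The name rad stands for reduced adh activity, where ADH is alcohol dehydrogenase, the last enzyme of ethanol fermentation. The labels do not give the lesion, so no transcript level was used here to check the genotype labels.

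Growth of a plant cell rests on water entry, which aquaporins of the plasma membrane (PIP) and of the vacuolar membrane (TIP) ease, and on solutes held in the vacuole. H+-ATPases of the plasma membrane spend ATP to acidify the wall and to charge the membrane, and that charge drives the uptake of potassium, nitrate, phosphate and sulfate by channels and proton-coupled carriers. At the vacuole an H+-ATPase and an H+-pyrophosphatase build the gradient used by antiporters, and the second of these spends pyrophosphate in place of ATP. Low oxygen limits ATP, and without oxygen plant cells rely on glycolysis and fermentation.

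Values in the text are log2 ratios of the rad mutant over the wild type, given as the mean ± SD over 3 replicates, where each replicate is the mean of its dye-swap pair. A probe was called at an adjusted p under 0.05 from limma with Benjamini-Hochberg adjustment over all 19947 probes tested. A lone number in parentheses after a ratio, or after a call lost or gained, is such an adjusted p. Signals are log2 fluorescence in arbitrary units, and they were never set against those of another probe. In tissue pooled from many cells, fewer cells of a type and less RNA per cell cannot be told apart.

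Of the 140 members 128 were tested, 10 were left out as too dim and 2 for an outlier spot. The limma test called 30 of the 128, or 23.4%, against 24.7% of all probes tested. A higher level in the mutant was called for 18 members, where 14.6% of all probes were called higher, and a lower level for 12, where 10.1% were called lower. Among the 18, the inorganic pyrophosphatase AK059951 and the sulfate transporter AK062031 entered the test through the mutant alone. With both genotypes well above background on all arrays, 111 members were tested, and 16 were higher and 12 lower. That is 25.2%, against 25.8% of all probes in that setting. The share of members called was thus close to that of the array as a whole. The median ratio of the members was -0.027, beside -0.0097 for all probes. Each of the 30 called members kept 1 sign over the 3 replicates and over the 6 single arrays. The call itself rests on the mean of these replicates, so the shared sign is largely built into it and is no separate support. A difference of at least 2-fold was called for 5 of the 128, AK059951 among them, where 2.61% of all probes had such a call. The median absolute log2 ratio was 0.58 over the called members and 0.39 over all called probes. The ratios by role show most members near 0 in each class and single members far from it.

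**Figure D1:**
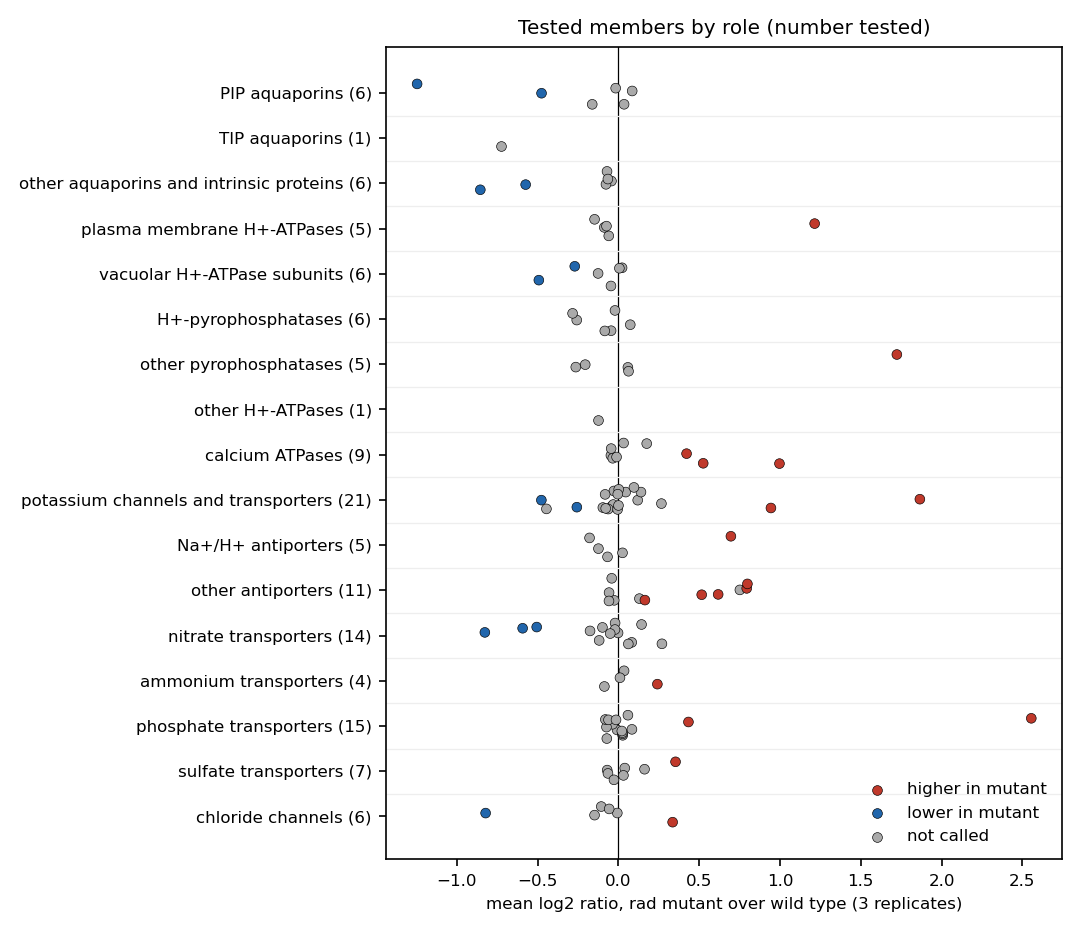
Mean log2 ratio of the rad mutant over the wild type (horizontal axis, 3 replicates) for each of the 128 tested members (points), in rows by role with the number tested, coloured by call in the limma test. The called water channels lie left of 0, and the highest points are a phosphate transporter at 2.56, a potassium transporter at 1.87 and an inorganic pyrophosphatase at 1.72. The last of these entered the test through the mutant alone.

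The number of calls depended on single replicates. Without replicate 1 the count was 12 members (8 higher, 4 lower), without replicate 2 it was 11 (8 higher, 3 lower), and without replicate 3 it was 31 (17 higher, 14 lower). The share of all probes called moved with it, to 7.47% without replicate 1 and 5.94% without replicate 2. Replicate 3 correlated with replicates 1 and 2 at r = 0.76 and 0.84 across all probes, and replicates 1 and 2 with each other at 0.89; genes are not independent, and these values are descriptions. A fit that kept the 6 arrays apart with the replicate as a random block called 43 members, 21 higher and 22 lower, which is 33.6% of the members, where the same fit called 34.0% of all probes. The calls of 7 members held in all 18 alternatives: the H+-ATPase AK072909, the subunit E-like AK072778, the calcium ATPase AK100415, the potassium transporter AK100669, the potassium channel AK069303, the Na+/H+ antiporter AK072114 and the phosphate transporter AK101170. These alternatives are not all separate checks. Scaling signals between arrays (Aquantile) leaves the ratios of the main fit unchanged, and the deposited value table nearly repeats the scanner's processed signals. Below, calls lost without a replicate are given with their adjusted p.

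**Figure D2:**
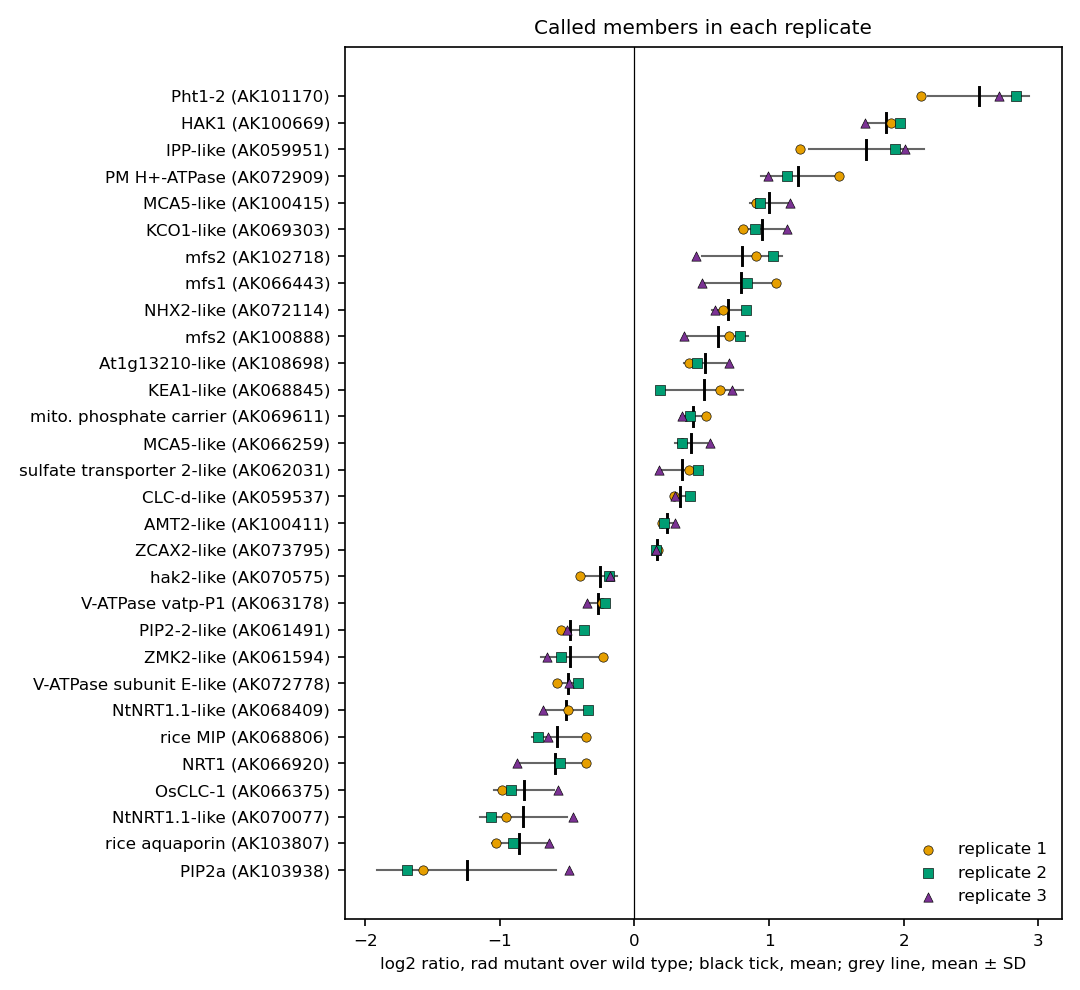
Log2 ratio of the rad mutant over the wild type (horizontal axis) in each replicate (coloured symbols), with the mean (black tick) and mean ± SD (grey line), for the 30 called members. All symbols of a member lie on one side of 0, which a call on their mean largely fixes. The PIP2a probe AK103938 has the widest spread, with replicate 3 at -0.48 and the others near -1.6.

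Of the 4 groups of roles, the water channels alone had calls in 1 direction. Of 13 probes tested, 4 fell in the mutant and 0 rose, or 30.8% called, beside 24.7% of all probes and 10.1% called lower. At an unadjusted p under 0.05 there were 6 of 13, each with a lower ratio, where 38.3% of all probes had such a p. The median ratio was -0.077, and 11 of 13 means were negative, where 53.2% of all probes had a negative mean. The count of falls was 2 without replicate 1, 1 without replicate 2 and 5 without replicate 3. Without the background offset, and from the scanner's processed signals, 1 water channel probe was called higher beside 4 lower.

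AK103938, described as rice PIP2a, an aquaporin of the plasma membrane, had signals of 15.29, 15.31 and 15.15 in the wild type and 13.72, 13.62 and 14.66 in the mutant in replicates 1, 2 and 3. The groups did not overlap, and the mutant of replicate 3 stood about 1 log2 unit above the other mutant samples. The ratio was -1.25 ± 0.66, or 2.37-fold lower in the mutant (limma adjusted p = 0.0371). The probe was saturated in the wild type on 2 of 6 arrays, the only member saturated on any array, and its call was lost without replicate 1 (adjusted p = 0.181) and without replicate 2 (0.145). A second probe with the same description, AK105524, had a ratio of 0.035 ± 0.041 and was not called (0.543).

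AK103807, described as a rice aquaporin with no class named, had signals of 11.95, 11.71 and 11.86 in the wild type and 10.92, 10.81 and 11.23 in the mutant. All mutant samples lay below all wild-type samples, and the ratio was -0.86 ± 0.20 (limma adjusted p = 0.00777). AK068806, described as a rice major intrinsic protein, the family to which aquaporins belong, had signals of 10.81, 11.04 and 10.91 against 10.45, 10.32 and 10.27 and a ratio of -0.57 ± 0.19 (adjusted p = 0.0147). Its groups did not overlap either. AK061491, like the grapevine aquaporin PIP2-2, had signals of 9.68, 9.66 and 9.59 against 9.13, 9.28 and 9.09 and a ratio of -0.48 ± 0.088 (adjusted p = 0.00776). Without replicate 2 the calls of AK103807 and AK068806 were lost (adjusted p = 0.0538 and 0.0771), and without replicate 1 that of AK061491 (0.0525).

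The only TIP among the members was AK073531, like a delta-type TIP of wheat. Its replicate ratios were -1.26, -0.61 and -0.30, with signals of 11.61, 10.47 and 10.44 in the wild type and 10.35, 9.86 and 10.14 in the mutant. All 3 were below 0 and the groups did not overlap, but the spread was wide, and the mean of -0.73 ± 0.49 was not called (limma adjusted p = 0.0658, 95% interval -1.26 to -0.19). It was called in 6 of 18 alternatives, among them without replicate 3 (adjusted p = 0.0351) and with the replicate block (0.00688). AK061782, like the wheat PIP2, was the PIP with the largest ratio among those not called, at -0.16 ± 0.080 (0.0731, and 0.0186 with the replicate block). Of the probes for other intrinsic proteins that were not called, AK105483 had the largest ratio, -0.077 ± 0.014 (0.179), and 4 such probes lay between -0.077 and -0.043.

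**Figure D3:**
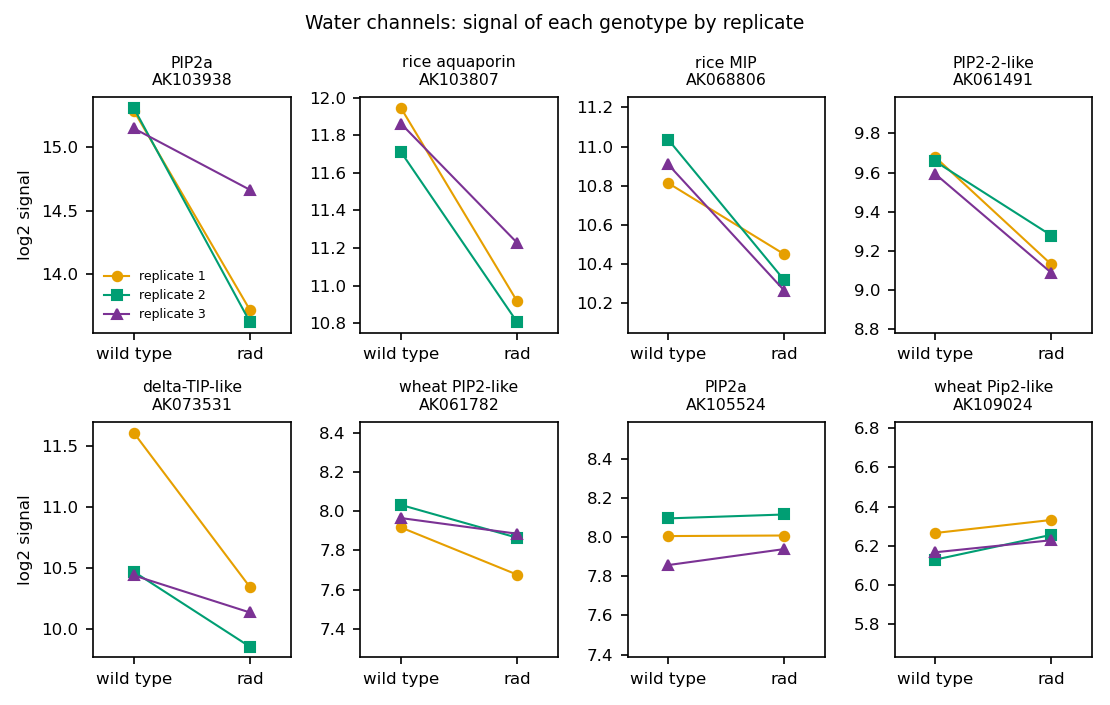
Log2 signal (vertical axis, arbitrary units, a separate range for each panel) in the wild type and the rad mutant for 8 water channel probes, with lines joining the genotypes of a replicate. The 4 called probes (top row) fall in all 3 replicates, and the second PIP2a probe, AK105524, is nearly level.

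Transcripts annotated as root-specific had calls in the same direction for 2 probes. Of 9 probes for RCc2 and RCc3, which are named for their expression in rice roots, 6 were tested, and 2 were called lower and 0 higher. That is 33.3%, where 24.7% of all probes were called and 10.1% were called lower. The median ratio of the 6 probes was -0.65, -0.66 and 0.0063 in replicates 1, 2 and 3. Their summed linear signal ranged from 57925 to 75505 in the wild type and from 23086 to 60252 in the mutant. The sum includes AK063684 (RCc3), which was saturated in the wild type on 3 arrays and was not called, with ratios of -2.32, -2.03 and 0.11. The other uncalled probes were AK102086, with ratios of -1.02, -0.94 and 0.10, and 2 with means of -0.0059 (AK109149) and -0.0038 (AK108560). Of 35 photosynthetic leaf probes tested, 9 were lower and 1 higher, or 28.6% called, with summed signals of 23353 to 23940 against 21450 to 21661. Of 15 probes for seed storage and late embryogenesis proteins 1 was higher and 0 lower, with sums of 4515 to 4673 against 4992 to 5353. The higher probe was AK061818, like the late embryogenesis protein Lea14-A of cotton, at 1.53 ± 0.14, and the sums include it. No storage protein probe was called, and 11 of the 15 means were negative. Of 9 vascular wall probes 0 were called and 0 had an unadjusted p under 0.05, with sums of 3715 to 4373 against 3264 to 4361. The remaining 3 root-specific, 4 leaf, 3 storage and 2 vascular probes were not tested, and no list of coleoptile markers was used. The part of other cell types in the members' ratios was not tested.

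Among the proton pumps and pyrophosphatases, 23 of 25 probes were tested, 2 rose and 2 fell, and the median was -0.074. The share called was 17.4%, beside 24.7% of all probes. The count of falls was 1 without replicate 1, 1 without replicate 2, 4 without replicate 3 and 6 with the replicate block, and 2 were higher in each of these. Those 2 include AK059951, which entered the test through the mutant alone. With both genotypes well above background on all arrays, 21 probes of the group were tested, 1 higher and 2 lower. In the main fit a pump of the plasma membrane and a soluble enzyme, AK059951, were higher, while both falls were subunits of the vacuolar ATPase.

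AK072909, described as a rice plasma membrane H+-ATPase, had signals of 10.46, 10.43 and 10.37 in the wild type and 11.98, 11.56 and 11.36 in the mutant. The wild-type samples lay within 0.1 log2 unit of each other, and every mutant sample was higher. The ratio was 1.21 ± 0.27, or 2.32-fold (limma adjusted p = 0.00677). The other 4 plasma membrane H+-ATPase probes were not called, and all of them had negative means. They included AK066738, with the same description as AK072909 and a ratio of -0.060 ± 0.015 (0.271), and the lily-like AK108449 at -0.15 ± 0.29 (0.427). AK108449 had replicate ratios of -0.33, -0.31 and 0.19, and it was called lower without replicate 3 (adjusted p = 0.0227).

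Of 7 probes for subunits of the vacuolar H+-ATPase 6 were tested, 2 fell and 0 rose, or 33.3% called, beside 24.7% of all probes. An unadjusted p under 0.05 was found for 3 of the 6, beside 38.3% of all probes. AK072778, like subunit E of lemon, which belongs to a stalk of the enzyme, had signals of 10.07, 9.97 and 10.18 in the wild type and 9.50, 9.55 and 9.69 in the mutant. The groups did not overlap, and the ratio was -0.49 ± 0.077 (limma adjusted p = 0.00663). AK063178, described as rice vatp-P1, a proteolipid of the membrane ring, had replicate ratios of -0.24, -0.22 and -0.35 and a mean of -0.27 ± 0.072 (adjusted p = 0.0195). Its genotype signals overlapped between replicates, and its call was lost without replicate 1 (0.0857) or 2 (0.0952). The other vatp-P1 probes, AK105044 and AK071641, had ratios of -0.046 ± 0.13 and 0.022 ± 0.15 and were not called. The subunit C-like AK100119 was at -0.13 ± 0.050 (0.0880, and 0.0399 with the replicate block).

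No H+-pyrophosphatase was called: of 7 probes 6 were tested, 0 passed in limma in either direction, and 1 had an unadjusted p under 0.05. The 4 probes described as the rice vacuolar H+-pyrophosphatase, an enzyme known to be induced in rice seedlings without oxygen, had mean ratios between -0.28 and -0.046. AK102146 had the widest spread between replicates of all members tested. Its signals were 15.14, 14.19 and 13.60 in the wild type and 13.79, 13.71 and 14.58 in the mutant, so that its ratios were -1.35, -0.48 and 0.98, below 0 in replicates 1 and 2 and above it in replicate 3. The mean was -0.28 ± 1.18 (limma adjusted p = 0.697), and its 95% interval of -1.55 to 0.98 runs from a fall of more than 2-fold to a rise of nearly that size. Of these probes AK099807 lay nearest to the threshold, with replicate ratios of -0.11, -0.28 and -0.38, a mean of -0.26 ± 0.14 and an adjusted p of 0.0541.

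AK059951, like the maize inorganic pyrophosphatase IPP, a soluble enzyme that splits pyrophosphate, had signals of 6.16, 6.17 and 6.11 in the wild type and 7.39, 8.11 and 8.12 in the mutant. Replicate 1 rose less than the others, and the groups were far apart. The ratio was 1.72 ± 0.43, or 3.30-fold (limma adjusted p = 0.00769). The wild-type signal was well above background on 2 of 6 arrays only, so the probe entered the test through the mutant alone, and its call and fold are given as a description. The ratio was 3.40 without the offset in the background correction and 4.20 from the scanner's processed signals. The probe AK073929, with the same description, had a ratio of 0.062 ± 0.14 (0.526), and the rice IPP probe AK070562 one of 0.058 ± 0.12 (0.504). AK101742, described as a rice nucleotide pyrophosphatase, which cleaves nucleotides, was at -0.26 ± 0.18 (0.0787), and was called lower without replicate 3 (0.0172) and with the replicate block (0.0143). The single H+-ATPase with no membrane named, AK068699, was at -0.13 ± 0.050 (0.0856, and 0.0280 with the replicate block).

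Cation transport had the most calls, 13 of 46 tested probes, of which 11 were higher and 2 lower, with a median of -0.0022. The share called was 28.3%, beside 24.7% of all probes. With 1 probe per description, 6 of 26 were higher and 2 lower, where 30.1% of all probes were called. Rises with no falls were found among probes described as calcium ATPases (3 of 9 tested) and as antiporters other than Na+/H+ (5 of 11), where 14.6% of all probes were called higher. With 1 probe per description, 2 of 3 and 1 of 4 were higher. Of the calcium ATPases 1 was higher without replicate 1 and 1 without replicate 2, and of these antiporters 0 and 1. The classes follow the descriptions, and not every rise is shown to be in a cation carrier. AK108698 is like At1g13210, a protein later placed elsewhere, and AK066443, AK100888 and AK102718 have no substrate named. Without replicate 1 the group held 4 higher and 1 lower, and without replicate 2 it held 5 higher and 0 lower.

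Type IIB calcium ATPases export calcium from the cytosol and are activated by calmodulin. AK100415, like MCA5 of Medicago truncatula, had signals of 7.99, 8.45 and 8.29 in the wild type and 8.89, 9.38 and 9.45 in the mutant, with a ratio of 1.00 ± 0.14 (limma adjusted p = 0.00442). All mutant samples were above all wild-type samples. AK066259, with the same description, had ratios of 0.35, 0.35 and 0.56 and a mean of 0.42 ± 0.12 (0.0139), and the third such probe, AK107528, was at -0.045 ± 0.010 (0.388). AK108698, like At1g13210 of Arabidopsis thaliana, had ratios of 0.40, 0.47 and 0.70 and a mean of 0.52 ± 0.16 (0.0135). The Arabidopsis protein was described as a calcium ATPase and was later placed among the phospholipid flippases. The other 4 probes with this description were not called, led by AK066838 at 0.17 ± 0.10 (0.0847). Without replicates 1 or 2 the call of AK066259 was lost (adjusted p = 0.0671 and 0.0705), and so was that of AK108698 (0.0582 and 0.0717).

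Of 26 probes for potassium channels and transporters, 21 were tested, 2 rose and 2 fell, or 19% called, beside 24.7% of all probes. AK100669, described as rice HAK1, a carrier for high-affinity potassium uptake, had signals of 7.89, 7.98 and 7.89 in the wild type and 9.79, 9.95 and 9.61 in the mutant. Replicates were close in both genotypes, which did not overlap. The ratio was 1.87 ± 0.13, or 3.64-fold, with the smallest adjusted p of all members (limma, 0.00208). Other HAK-like members were nearer to 0: AK106353, like HAK1 of reed, was at 0.096 ± 0.048 (0.152), and AK072472, like HAK5 of Arabidopsis, at 0.0017 ± 0.0032 (0.975). AK070575, like hak2 of the seagrass Cymodocea nodosa, had ratios of -0.40, -0.19 and -0.18 and fell by 0.26 (adjusted p = 0.0452). That call was lost in 7 of 18 alternatives, among them leaving out replicate 1, 2 or 3 in turn (adjusted p = 0.0940, 0.138 and 0.0641).

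AK069303, like the outward-rectifying channel KCO1 of Eucalyptus, a type that lies in the vacuolar membrane, had signals of 7.04, 7.05 and 6.94 in the wild type and 7.85, 7.94 and 8.07 in the mutant. The groups were apart by more than their spread. The ratio was 0.94 ± 0.17 (limma adjusted p = 0.00539), and it was 1.50 from the scanner's processed signals. AK061594, like maize ZMK2, a channel of the AKT2/3 type found in phloem, had ratios of -0.24, -0.54 and -0.65 and a mean of -0.48 ± 0.22 (0.0291). Its call was lost without replicate 2 (adjusted p = 0.139), without replicate 3 (0.0589) and with the mutant in Cy3 only (0.0737). The second ZMK2-like probe, AK062407, had ratios of 0.0043, -0.11 and 0.46 and was not called (0.530). AK072707, described as rice KOB1, a beta subunit of potassium channels, had ratios of -0.95, -0.42 and 0.025 and a mean of -0.45 ± 0.49 (0.181). Replicate 1 was low and replicate 3 near 0, and the probe was called lower without replicate 3 (0.0472). AK100739, AK108663 and AK109604, like a voltage-gated channel of Arabidopsis, HKT1 and KCO1, were not well above background in either genotype on any array and were not tested.

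Na+/H+ antiporters gave 1 rise among 5 probes tested, or 20% called, beside 24.7% of all probes. AK072114, like tomato NHX2, of a family that exchanges sodium or potassium for protons at the vacuole and endosomes, had signals of 8.75, 8.70 and 8.68 in the wild type and 9.41, 9.53 and 9.28 in the mutant. The ratio was 0.70 ± 0.12 (limma adjusted p = 0.00580), and no mutant sample fell within the wild-type range. AK065608, like sos1, the exchanger of the plasma membrane, had ratios of -0.12, -0.16 and -0.26 and was not called (0.0557), except in 4 alternatives that included the replicate block (0.0105).

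The other antiporters included 7 rice probes of the major facilitator superfamily, mfs1 and mfs2, whose substrates are not given by their descriptions. AK066443 (mfs1) had ratios of 1.05, 0.83 and 0.50 and a mean of 0.79 ± 0.28 (limma adjusted p = 0.0154), and its groups did not overlap. The mfs2 probes AK100888 and AK102718 had means of 0.62 ± 0.22 (0.0173) and 0.80 ± 0.30 (0.0177). In each of these 3 probes replicate 3 gave the smallest ratio. AK065048, also mfs1, had ratios of 1.07, 1.09 and 0.097 and was not called (0.0846), but was called without replicate 3 (0.00351) and with the replicate block (0.00818). The other 3 mfs2 probes lay between -0.059 and -0.026. Calls were lost without replicate 1 and without replicate 2 for AK066443 (adjusted p = 0.0674 and 0.0859), AK100888 (0.106 and 0.0844) and AK102718 (0.110 and 0.0815).

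AK073795, like the maize Ca2+/H+ antiporter ZCAX2, of a family that loads calcium into the vacuole, had a small ratio with a narrow spread, 0.16 ± 0.011 (limma adjusted p = 0.0341). Its call was lost in 7 of 18 alternatives, among them leaving out replicate 1, 2 or 3 (adjusted p = 0.118, 0.192 and 0.0866). AK068845, like KEA1, a K+/H+ antiporter of the chloroplast envelope in Arabidopsis, had ratios of 0.63, 0.19 and 0.73 and a mean of 0.52 ± 0.29 (0.0448). Its genotype signals overlapped between replicates, and its call was lost without replicate 1 (0.204), without replicate 3 (0.0992) and with the mutant in Cy3 only (0.0723).

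Anion and nutrient transport gave 9 calls among 46 tested probes, 5 higher and 4 lower, with a median of -0.012. The share called was 19.6%, beside 24.7% of all probes. The rises include AK062031, which entered the test through the mutant alone. With both genotypes well above background on all arrays, 38 probes of the group were tested, 4 higher and 4 lower. The phosphate transporters had 2 rises and 0 falls, and the nitrate transporters 3 falls and 0 rises. Without replicate 1 the group held 2 higher and 0 lower, and without replicate 2 it held 1 higher and 1 lower.

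AK101170, described as rice Pht1-2, a proton-coupled phosphate carrier of the plasma membrane, had the largest mean ratio of the members in the settings used here. Without the background offset, and from the scanner's processed signals, that of AK059951 was larger. Its signals were 8.02, 8.04 and 7.98 in the wild type and 10.14, 10.88 and 10.69 in the mutant. Wild-type samples differed by less than 0.1 log2 unit, and all mutant samples were more than 2 log2 units above them. The ratio was 2.56 ± 0.38, or 5.88-fold (limma adjusted p = 0.00397). Of 16 phosphate transporter probes 15 were tested, 2 rose and 0 fell, or 13.3% called, beside 24.7% of all probes. An unadjusted p under 0.05 was found for 2 of the 15, where 38.3% of all probes had such a p. The other Pht1-2 probes tested, AK101380 and AK106694, had ratios of -0.072 ± 0.056 (0.266) and 0.059 ± 0.050 (0.339). AK069611, described as a rice mitochondrial phosphate carrier, which brings phosphate into the matrix for ATP synthesis, had ratios of 0.53, 0.41 and 0.36 and a mean of 0.43 ± 0.091 (0.00964). Its call was lost without replicate 2 (0.0651), and AK066979, with the same description, was at 0.083 ± 0.11 (0.326).

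Of 15 nitrate transporter probes 14 were tested, 3 fell and 0 rose, or 21.4% called, beside 24.7% of all probes. An unadjusted p under 0.05 was found for 5 of the 14, a share close to the 38.3% of all probes. The falls were all in probes described as or like NRT1, a family that includes proton-coupled nitrate carriers. AK070077 and AK068409, both like tobacco NtNRT1.1, had ratios of -0.96, -1.07 and -0.46 and -0.50, -0.34 and -0.68. In both, every replicate was lower in the mutant. Their means were -0.83 ± 0.32 (limma adjusted p = 0.0191) and -0.51 ± 0.17 (0.0159), and neither overlapped between genotypes. AK066920, described as rice NRT1, had signals of 8.84, 8.71 and 8.88 in the wild type and 8.48, 8.16 and 8.01 in the mutant and a ratio of -0.59 ± 0.26 (0.0253). AK070077 had its smallest ratio in replicate 3, while AK066920 had its largest there. Without replicate 1 all 3 calls were lost (adjusted p = 0.116, 0.0940 and 0.0615), and without replicate 2 those of AK070077 (0.0871) and AK066920 (0.109). The ratio of AK068409 was -0.87 without the background offset and -0.93 from the scanner's processed signals. AK072215, described as rice Nrt2, of the high-affinity family, was at -0.12 ± 0.023 (0.0758), and AK068351, like soybean NRT1-2, at 0.27 ± 0.30 (0.193), with an adjusted p of 0.0426 without replicate 3.

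AK100411, like the ammonium transporter AMT2 of Lotus japonicus, had ratios of 0.21, 0.22 and 0.30 and a mean of 0.24 ± 0.051 (limma adjusted p = 0.0193). It was the 1 rise among 4 tested of 6 ammonium probes, or 25% called, beside 24.7% of all probes. The genotype signals overlapped between replicates, and the call was lost when any replicate was left out (adjusted p = 0.0770, 0.114 and 0.0521) and with the mutant in Cy3 only (0.0955). The rice OsAMT1 probe AK107601 was at -0.087 ± 0.010 (0.140). AK107190, like soybean SAT1, which was named an ammonium transporter and later described as a transcription factor of the bHLH type, was not well above background in the wild type on any array and was not tested.

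Of 8 sulfate transporter probes 7 were tested, 1 rose and 0 fell, or 14.3% called, beside 24.7% of all probes. An unadjusted p under 0.05 was found for 2 of the 7, where 38.3% of all probes had such a p. AK062031, like tomato sulfate transporter 2, had ratios of 0.41, 0.47 and 0.18 and a mean of 0.35 ± 0.15 (limma adjusted p = 0.0302). The wild type was well above background on 3 of 6 arrays, so this probe too entered the test through the mutant alone, and its call is a description. The ratio was 0.98 without the background offset and 1.34 from the scanner's processed signals. The call was lost without replicate 1 (0.150), without replicate 2 (0.140) and with the mutant in Cy5 only, where the ratio was 0.22 (0.0682). AK067353, like At5g10180, was at 0.16 ± 0.12 (0.116), and AK066932 was not well above background in either genotype on any array.

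Chloride channels of the CLC family, which carry anions across inner membranes of the cell, gave 1 fall and 1 rise among 6 probes tested. That is 33.3% called, beside 24.7% of all probes. AK066375, described as rice OsCLC-1, had signals of 8.07, 7.74 and 7.87 in the wild type and 7.08, 6.83 and 7.30 in the mutant. The groups did not overlap, and the ratio was -0.82 ± 0.22 (limma adjusted p = 0.00996), or -1.28 from the scanner's processed signals. AK066027, with the same description, had a ratio of -0.0073 ± 0.12 (0.939). AK059537, like CLC-d, which lies in the trans-Golgi network of Arabidopsis, had ratios of 0.29, 0.41 and 0.30 and a mean of 0.34 ± 0.066 (0.0119). Without replicates 1 or 2 both calls were lost, with adjusted p of 0.0635 and 0.0624 for AK066375 and of 0.0603 and 0.0802 for AK059537. The rice OsCLC-2 probe AK066353 was at -0.15 ± 0.067 (0.0756, and 0.0312 with the replicate block).

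**Figure D4:**
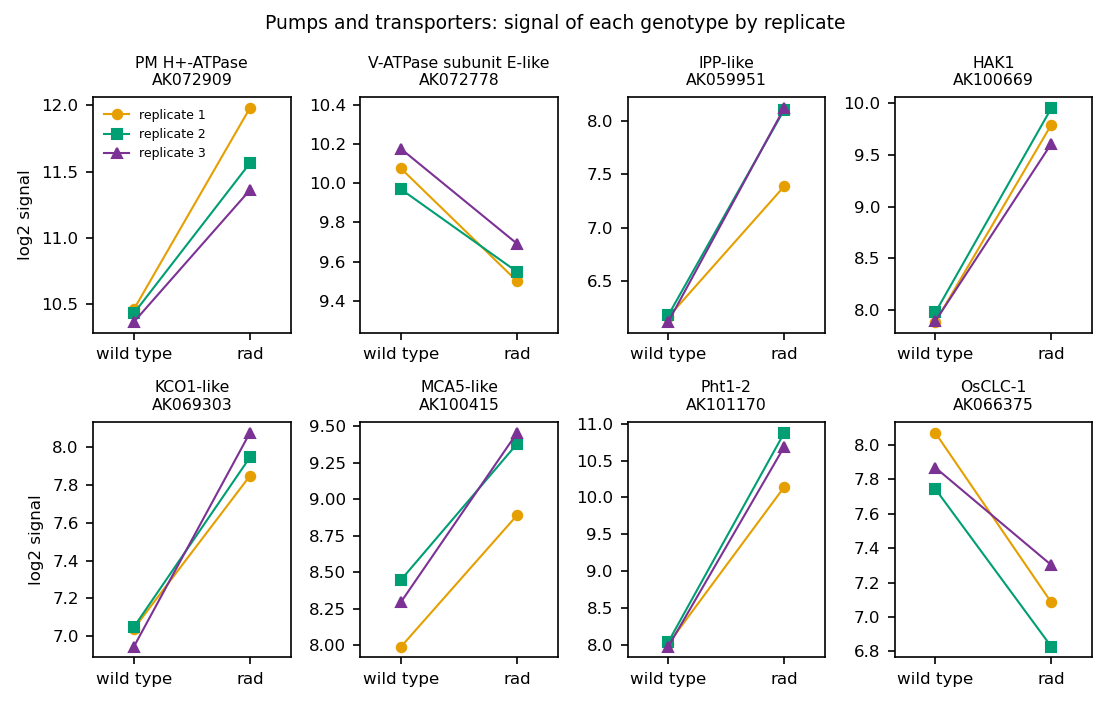
Log2 signal (vertical axis, arbitrary units, a separate range for each panel) in the wild type and the rad mutant for 8 called pumps, channels and carriers, with lines joining the genotypes of a replicate. Pht1-2 rises from near 8 to between 10.14 and 10.88, and the subunit E-like and OsCLC-1 probes fall in all 3 replicates.

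Probes with one description often differed in their call. Of 29 descriptions carried by more than 1 tested probe, 16 had at least 1 call. In 15 of the 16 some probes were called and others not, in 1 (NtNRT1.1) all probes were called, and in 0 were probes called in both directions. The array description does not say whether such probes read one gene or relatives. For Pht1-2 the 3 tested probes ranged from -0.072 to 2.56, and for the 5 mfs2 probes the range was -0.059 to 0.80. In other cases the call differed but the ratio hardly did, as for mfs1 at 0.79 and 0.75 and ZCAX2 at 0.16 and 0.13. The difference between probes of one description was not tested.

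**Figure D5:**
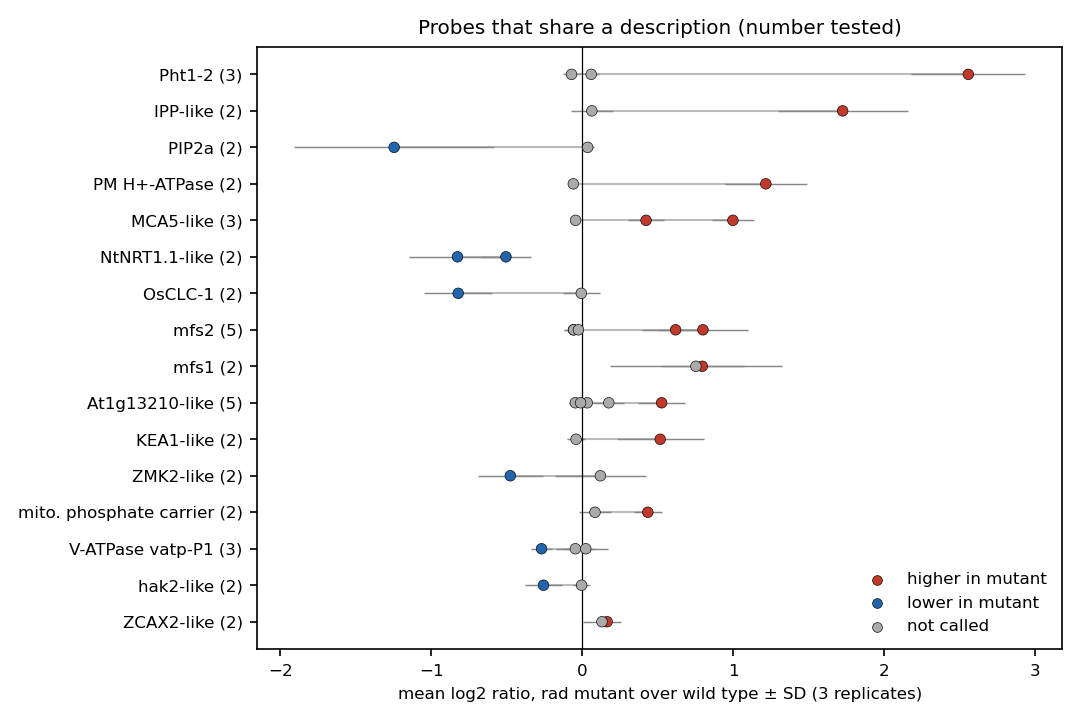
Mean log2 ratio of the rad mutant over the wild type ± SD over 3 replicates (horizontal axis) for each tested probe of the 16 descriptions that have several tested probes and at least 1 call, with the number tested. In 15 of the 16 descriptions called and uncalled probes stand side by side, as for Pht1-2 at 2.56, 0.059 and -0.072.

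Transport genes that the description search did not reach were read from further lists. Calls were made for 37.5% of 8 probes for 14-3-3 proteins and 27.3% of 11 proton pump probes worded without H+. For 4 probes found by the words for cation exchangers the share was 25%, and for all probes it was 24.7%. Of 8 probes for 14-3-3 proteins, which activate the plasma membrane H+-ATPase by binding its end, 1 rose and 2 fell: AK066506 (gf14-e) was at -0.55 ± 0.11 (limma adjusted p = 0.00768) and AK061786 (GF14-c) at -0.18 ± 0.021 (0.0282), while AK070548 (GF14-d), named after its value was seen, was at 0.39 ± 0.21 (0.0434). Of 11 proton pump probes worded without H+, 2 rose and 1 fell. AK100543, like the vacuolar ATPase subunit At2g28520, was at 0.63 ± 0.11 (0.00616), and AK067063, like the large maize subunit that binds ATP, was at -0.51 ± 0.085 (0.00681). The other rise, AK068468, like a plasma membrane proton pump of Arabidopsis and named after its value was seen, was at 0.49 ± 0.15 (0.0146). Subunits of the vacuolar ATPase were therefore called in both directions once these probes are counted. Of 4 probes found by the words for cation exchangers 1 fell, AK060940, at -0.17 ± 0.034 (0.0354). It is like CAXIP1, a protein known to interact with an exchanger of Arabidopsis and not itself an exchanger.

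The 1 cyclic nucleotide-gated channel tested of 3, AK105170, like cngc6, rose by 0.48 ± 0.061 (limma adjusted p = 0.00604). Of 49 other ion carriers tested 3 rose and 5 fell, or 16.3% called, beside 24.7% of all probes. They were led by AK059797, described as rice HAK7 with the word potassium spelled otherwise, which had ratios of 0.89, 1.02 and 1.02 and a mean of 0.98 ± 0.075 (0.00308). It was a second potassium carrier of the HAK family called higher beside HAK1. AK060508, like a peptide transporter of Arabidopsis, was at -0.45 ± 0.076 (0.00757). The other calls of this list, named after their values were seen, were rises of rice HAK4 (AK105276, 0.54 ± 0.11) and a barley ptr1-like peptide transporter (AK070036, 0.51 ± 0.13). The falls were in a rice voltage-dependent anion channel (AK060652, -0.36 ± 0.085), an oligopeptide transporter (AK100802, -0.26 ± 0.094) and the rice peptide transporter OsPTR1 (AK070527, -0.17 ± 0.013, and AK065895, -0.39 ± 0.19). Without replicate 1 the calls of AK066506 (0.0589), AK061786 (0.107), AK060940 (0.123) and AK060508 (0.0525) were lost, and those of the first 3 also without replicate 2 (0.0536, 0.149 and 0.157). AK061786 and AK060940 also lost theirs without replicate 3 (0.0807 and 0.103).

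All 8 calls of these lists named after their values were seen were lost without replicate 1, with adjusted p of 0.153 for AK070548, 0.0616 for AK068468, 0.0599 for AK105276, 0.0708 for AK070036, 0.0622 for AK060652, 0.0825 for AK100802, 0.108 for AK070527 and 0.0710 for AK065895. All 8 were lost without replicate 2 as well (adjusted p = 0.102, 0.0859, 0.0550, 0.0558, 0.0753, 0.131, 0.169 and 0.149 in the same order). Those of AK100802 (0.0571) and AK070527 (0.0786) were also lost without replicate 3.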

How the data were processed

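RNA of wild-type and rad mutant coleoptiles was measured on 6 arrays with 2 colours. Per the file headers, the authors read 22575 spots per array with Feature Extraction 8.5.1.1 and deposited the mean intensity and local background intensity of each spot in both channels, without normalization. They also deposited processed intensity values, log10 ratios and flags, and a log10 value table that differs from the scanner's ratios by at most 5e-06 and runs as mutant over wild type. Between 90.4% and 95.7% of probes were well above background per channel, with median signals 4 to 10.3 times background, and precision is limited by how few arrays there were. Every array was scanned on its own slide with both genotypes, so slide and genotype do not coincide.

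Ratios were computed with limma 3.58.1 in R 4.3.3: normexp background correction (offset 50), loess within arrays with control spots at weight 0, and genotype signals after Aquantile. Probes were kept when at least 4 arrays gave a signal well above background in the wild type or in the mutant (20213), less 266 with an outlier spot, which left 19947. Dye-swap pairs were averaged, so dye effects cancel, and lmFit and eBayes tested the mean ratio against 0 (two-sided, with 4.26 degrees of freedom in total). The model was also run on simulated data, with independent normal replicates and shifts in a small set of probes. In the real data 24.7% of probes were called and the replicates may be technical, which that run did not cover. That same-numbered arrays pair comes from their titles. Deviations from the mean of each dye orientation correlated at 0.66 to 0.84 in paired arrays and at -0.66 to -0.12 in those of different numbers. Taking out a mean over 3 replicates pushes the second values below 0, so their sign is no evidence for the pairing. The ratios of paired arrays themselves correlated at 0.88 to 0.90.

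The members and lists were chosen with earlier results of these data known. Named genes are all called members (30 at most), the largest uncalled ratio of each class, members not well above background in a genotype on any array, and up to 2 called probes of each further list. Probes sharing a description with these or lying near the threshold were added after values were seen. No accession matched the gene table used here (0 of 140), so no loci are given. Alternatives covered background, normalization, dim, outlier and saturated spots, replicates, dye orientation, replicate block, the deposited value table, prior settings and 1 probe per description.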

Additional observations from a re-analysis of the deposited data

How the results depend on the processing

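The count of called members was 28 to 35 in the 13 alternatives that kept all replicates and all descriptions and had no replicate block. Among them, Aquantile could only repeat the main fit, and the deposited value table nearly repeats the processed signals. It ranged from 11 to 31 when one replicate was left out, with 8 to 17 higher and 3 to 14 lower. All 12 calls without replicate 1 and all 11 without replicate 2 were among the 30, as were 25 of the 31 without replicate 3. With the arrays kept apart and the replicate as a block, 22 members were lower, and with a dye term added 20 were, beside 21 and 20 higher. The fit with 1 probe per description called 22 of 83 members. The median ratio of the members moved to -0.041 without the background offset and to -0.044 with median centring in place of loess, where the median of all probes was -0.015 and -0.022. None of the named calls changed sign in any alternative run. Dim probes depended most on the background: the scanner's processed signals gave 4.20 for AK059951 and 1.34 for AK062031. The cause of the losses without a replicate was not tested; such fits have fewer replicates.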
